A study of Mus musculus with 39 samples.

Results

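The mouse β-globin genes and their locus control region (LCR) lie inside a long array of olfactory receptor genes on chromosome 7. The chromatin on both sides of the globin locus was examined here as 2 flanks of 200 kb, one on the side of the adult genes (chr7:110700000-110899999, mm9, called the gene-side flank) and one on the side of the LCR (chr7:111100000-111300000, the LCR-side flank). Members were all DpnII fragments with their midpoint in these coordinates, chosen by position alone. They numbered 1082, with 539 on the gene side and 543 on the LCR side, of 370797 DpnII fragments on chromosome 7. The interval from the Hbb-b1 fragment to the HS2 fragment (chr7:110961967-111009749, the globin-to-LCR interval, 122 fragments) served for comparison.

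Olfactory receptors are odorant receptors with 7 membrane spans, each encoded by a small gene, and each sensory neuron of the nose uses a single one of them. In erythroid cells these genes are silent. The LCR is a cluster of erythroid enhancers marked by DNase I hypersensitive sites (HS), and in maturing erythroblasts it contacts the adult β-globin genes Hbb-b1 and Hbb-b2, which encode the β chain of haemoglobin.

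In NG Capture-C, reads report the ligation of a captured restriction fragment, the viewpoint, to other fragments in crosslinked nuclei. A total of 3 comparisons, each of 3 against 3 biological replicates, were available. Erythroblasts grown from disaggregated mouse foetal liver (MFL, wild type, strain given as C57Bl6) were sampled at 0 h and 30 h of differentiation and viewed from Hbb-b1 and Hbb-b2, with each library sequenced in 2 runs. DKO erythroblasts, in which the α-globin enhancers R1 and R2 on another chromosome are deleted, and WT erythroblasts were viewed at 30 h from the same genes. Wild-type MFL erythroblasts and wild-type E14 mouse embryonic stem cells (mES, 129/Ola, 1 established line) were viewed from the LCR sites HS1 and HS2. For the MFL libraries viewed from HS1 and HS2 the descriptions give 30 h whereas the time field gives 0 h. Cell type and strain cannot be told apart in that comparison. The labels place all foetal liver cultures after depletion of Ter119-positive cells and a sort on CD44 and size, with BrdU present late in the culture. The methods describe a mixed genetic background where the labels name C57Bl6. The gene annotation GENCODE vM1 gives the name Hbb-b2 to the gene at the fragment labelled Hbb-b1, and Hbb-b1 to that at the fragment labelled Hbb-b2. The pair are near-identical copies, and the labels' names are used here.

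The flanks were thinly covered. Added over both viewpoints, the gene-side flank held 466 to 747 reads per replicate at 0 h (NextSeq run, the deeper of the pair), 96 to 488 at 30 h, 245 to 369 in WT, 128 to 182 in DKO, 97 to 121 in mES cells viewed from HS1/HS2 and 23 to 60 in MFL cells viewed from these sites. The LCR-side flank held 250 to 491, 52 to 171, 137 to 207, 97 to 136, 116 to 188 and 14 to 39 reads in the same order. A level of 3 reads, pooled over both viewpoints, was taken as the limit of detection in 1 replicate. It was 10.6 to 20.8 interactions per 100000 on chromosome 7 at 0 h and 19.3 to 68.0 at 30 h (NextSeq run). In the MFL libraries from HS1/HS2 it was 127.6 to 356.7. The levels below instead average viewpoints and runs with equal weight, so a single read can count for more or less there than in these limits. These limits cover counting error only, and the shares of the shallow captures rest on few reads. One library stood apart: DKO replicate 1 from Hbb-b1 kept 1285 reads on chromosome 7 and placed 12.8% of them in the globin-to-LCR interval (95% Wilson interval 11.1 to 14.8), against 23.8% and 21.5% in the other DKO replicates.

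The sequence of the flanks was poor in G and C, with 36.7% on the gene side and 39.9% on the LCR side against 43.0% for the whole chromosome. The annotation (GENCODE vM1, mm9) placed 36 genes there. The gene-side flank carried 14 protein coding olfactory receptor genes, 3 olfactory receptor pseudogenes and 1 miRNA gene. The LCR-side flank carried 10 olfactory receptor genes, 3 olfactory receptor pseudogenes, 1 other pseudogene (Gm4886), the long transcript 4930516K23Rik and 3 other protein coding genes at its far end. A CTCF-like word of 12 bases (CCA, 2 free bases, AG, 2 free bases, GGC) was searched on both strands, because CTCF is the DNA-binding protein found at the borders of many chromatin domains. The word occurred 4 times in the gene-side flank and 2 times in the LCR-side flank, or 2.0 and 1.0 times per 100 kb, against 6.18 per 100 kb on chromosome 7. Of the 20 bins of 10 kb in each flank, 15% on the gene side and 10% on the LCR side held a match, compared with 41.0% of all such bins of the chromosome. The globin-to-LCR interval held 0 matches. Each match is printed 5′ to 3′ on its own strand with 9 bases on either side and the 12-base word in capitals, since these are the only places in the flanks with these letters.
chr7:110700541-110700570, minus strand, in Olfr613: gacatcaaaCCAGAAGATGGCcaagacact
chr7:110707723-110707752, plus strand, outside genes: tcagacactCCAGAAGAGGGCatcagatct
chr7:110718872-110718901, minus strand, outside genes: aaaagaatcCCAGAAGCAGGCaaaagagtc
chr7:110746078-110746107, minus strand, in Olfr618: agcttgaaaCCAAAAGATGGCaagaacttt
chr7:111244898-111244927, plus strand, in 4930516K23Rik: tcagacatcCCAGAAGAGGGCatcagatct
chr7:111283251-111283280, minus strand, in 4930516K23Rik: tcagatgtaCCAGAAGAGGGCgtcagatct
The second and the fifth of these stretches shared 28 of 30 bases, and the sixth shared 25 and 26 of 30 with them. Within 5 kb of the matches the mean level from Hbb-b1/Hbb-b2 was 2.9 to 7.2 interactions per kb (per 100000 on chromosome 7) at 0 h. From HS1/HS2 it was 12.2 to 36.7 in mES cells and 0.0 to 13.6 in MFL cells. All 4 gene-side matches lay in the 50 kb farthest from the globin genes. From Hbb-b1/Hbb-b2, the 3 bins of 10 kb with the most interactions in each flank held 0 matches. From HS1/HS2 the first pair of matches lay in the highest gene-side bin of mES cells, which was not among the highest in MFL cells. A match describes the letters only and is not evidence of a bound site.

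From the adult globin genes, the olfactory receptor flanks together took a few percent of the interactions on chromosome 7, and the share of the LCR-side flank was lower at 30 h than at 0 h in every replicate. The gene-side flank held 3.03%, 3.17% and 2.59% at 0 h and 2.00%, 2.46% and 3.12% at 30 h, and the groups overlapped. The LCR-side flank held 1.70%, 1.88% and 1.67% at 0 h and 1.05%, 1.05% and 1.09% at 30 h, so that every replicate at 30 h lay below every replicate at 0 h. WT libraries of the other experiment, also viewed at 30 h from these genes, held 1.09%, 1.58% and 1.57%. Their mean of 1.41% lay between 1.06% at 30 h and 1.75% at 0 h. The 30 h means of the experiments thus differed, but WT replicate 1 was at the level of the 30 h replicates. No test was made between the experiments. The globin-to-LCR interval held 21.1% ± 1.39 at 0 h and 26.5% ± 0.662 at 30 h (SD, n = 3), higher in every replicate at 30 h.

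On the log2 scale the gene-side share differed by −0.23 between 30 h and 0 h (two-sided exact permutation test, p = 0.3, adjusted over the 12 such tests 0.4). For the LCR-side share the difference was −0.72, a ratio of 0.606, with p = 0.1 by the same exact test and 0.2 after adjustment. With 20 arrangements of 3 against 3 replicates, 0.1 is the smallest p this design allows, so no share difference could pass 0.05. The level per kb was 8.75 ± 0.560 at 0 h and 5.30 ± 0.115 at 30 h on the LCR side (SD, n = 3, interactions per 100000 on chromosome 7). On the gene side it was 14.6 ± 1.498 and 12.6 ± 2.82. Per kb the interval exceeded the mean of both flanks by 5.38 ± 0.10 at 0 h and 6.10 ± 0.21 at 30 h on the log2 scale. The groups differed by 0.72 with no overlap (exact permutation p = 0.1, adjusted 0.2). Here and below, the viewpoints lie in or at the edge of the interval and at least 62.0 kb from the flanks. Closeness thus enters the size of this excess, and its part was not tested. Each viewpoint alone gave LCR-side shares of 1.91% ± 0.287 and 1.13% ± 0.0578 from Hbb-b1 and of 1.59% ± 0.0702 and 0.986% ± 0.0992 from Hbb-b2 at 0 h and 30 h (SD, n = 3). The gene-side difference varied with the library left out, from −0.07 without 30 h replicate 1 to −0.40 without 30 h replicate 3, where the groups no longer overlapped.

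**Figure D1:**
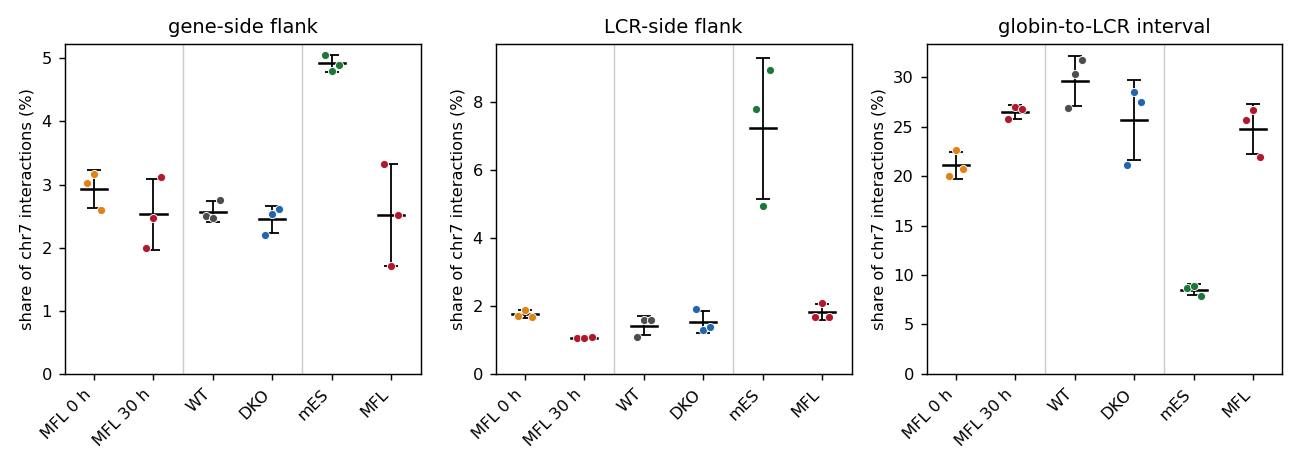
Share of chromosome 7 interactions (%, vertical axes from 0) in the gene-side flank, the LCR-side flank and the globin-to-LCR interval. Points are replicates and bars show the mean ± SD of 3 replicates for MFL 0 h, MFL 30 h, WT and DKO viewed from Hbb-b1/Hbb-b2 and for mES and MFL viewed from HS1/HS2. The mES replicates lay above all MFL replicates in both flanks and below them in the interval.

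Between WT and DKO erythroblasts the shares of both flanks overlapped. The gene-side flank held 2.50%, 2.46% and 2.75% in WT and 2.20%, 2.53% and 2.61% in DKO erythroblasts. The LCR-side flank held 1.09%, 1.58% and 1.57% in WT and 1.90%, 1.30% and 1.37% in DKO. The highest LCR-side value came from DKO replicate 1, the library that stood apart. The log2 differences were −0.07 for the gene side (exact permutation p = 0.6, adjusted 0.7) and 0.11 for the LCR side (exact permutation p = 0.7, adjusted 0.7). Without DKO replicate 1 the LCR-side difference was −0.06, and without WT replicate 1 it was −0.07. The interval held 29.7% ± 2.51 in WT and 25.7% ± 4.05 in DKO (SD, n = 3), and its log2 excess per kb over the flanks was 6.10 ± 0.02 and 5.89 ± 0.28 (exact permutation p = 0.2, adjusted 0.3).

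Seen from the LCR, the flanks took a larger part of the contacts in every mES replicate than in any of the erythroblast replicates. The gene-side flank held 5.06%, 4.80% and 4.90% in mES and 3.33%, 1.71% and 2.52% in MFL cells. For the LCR-side flank the mES values were 7.78%, 4.93% and 8.95%, and those of MFL 1.67%, 2.08% and 1.68%. No MFL replicate reached the lowest mES replicate on either side. On the log2 scale MFL lay 1.02 below mES on the gene side and 1.96 below on the LCR side, which are ratios of 0.494 and 0.257. Both differences gave p = 0.1 in the two-sided exact permutation test, the smallest possible, and 0.2 after adjustment. The globin-to-LCR interval held 24.8% ± 2.52 in MFL and 8.51% ± 0.550 in mES (SD, n = 3). Its log2 excess per kb over the flanks was 5.69 ± 0.26 and 2.67 ± 0.35, a difference of 3.02 without overlap (exact permutation p = 0.1, adjusted 0.2).

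The share of reporter reads that stayed on chromosome 7 differed with cell type too. From HS1 it was 70.0 to 81.0% in mES cells and 59.4 to 59.6% in MFL cells, and from HS2 the ranges were 48.9 to 58.1% and 33.5 to 35.8%. All shares above are scaled to chromosome 7, and the part of this difference in the result was not tested beyond the other scalings tried. The depth from HS1 was low in both cell types, with 401 to 448 reads on chromosome 7 in mES cells and between 422 and 1082 for MFL.

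The 2 flanks were then set against each other within each replicate, as a ratio of levels averaged over viewpoints and runs. Scaling has no effect on the ratio of 1 viewpoint in 1 run, but it sets the weight of each in the average. In the average of Hbb-b1 and Hbb-b2 the LCR-side flank was the lower in all 12 replicates. From Hbb-b2 alone it was the higher in DKO replicate 1, with 6.93 against 5.67 per kb. The log2 ratio per kb of the LCR side over the gene side was −0.74 ± 0.10 at 0 h, −1.23 ± 0.29 at 30 h, −0.88 ± 0.29 in WT and −0.70 ± 0.42 in DKO (SD, n = 3). The gene-side flank begins 62.0 kb from Hbb-b1 and 76.0 kb from Hbb-b2, while the LCR-side flank begins 137 and 124 kb away, so the sides differ in distance. In windows at equal distance from the viewpoints (131 to 269 kb) the ratio was 0.51 ± 0.27 at 0 h, −0.05 ± 0.15 at 30 h, 0.18 ± 0.51 in WT and 0.31 ± 0.13 in DKO (SD, n = 3). In these windows the mean was thus no longer in favour of the gene side at 0 h, in WT and in DKO, and the WT replicates ranged from −0.40 to 0.53. The gene-side window ends at 110838608, so the part of that flank nearest to the genes is left out. The LCR-side stretch at the same distance as that part lies outside the flank and was not examined. The log2 ratio over whole flanks was lower at 30 h than at 0 h by 0.49 without overlap (exact permutation p = 0.1, adjusted 0.2). From Hbb-b1 alone this difference was −0.38 and the groups overlapped (exact permutation p = 0.3). Between DKO and WT the difference was 0.18, with overlap (exact permutation p = 0.7, adjusted 0.7).

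HS1 and HS2 lie nearly midway, 108 and 110 kb from the gene-side flank and 92.1 and 90.3 kb from the LCR-side flank. From them the log2 ratio was 0.62, 0.04 and 0.87 in mES replicates 1, 2 and 3, all with the LCR side higher. In MFL replicates it was −0.999, 0.28 and −0.58. The groups overlapped through mES replicate 2 and MFL replicate 2, and the difference of −0.94 gave an exact permutation p of 0.2 (adjusted 0.3). Without MFL replicate 2 it was −1.30 and without mES replicate 2 it was −1.18, in both cases without overlap. At equal distance (109 to 291 kb) the ratio was 0.52 ± 0.55 in mES and −0.71 ± 0.70 in MFL (SD, n = 3).

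**Figure D2:**
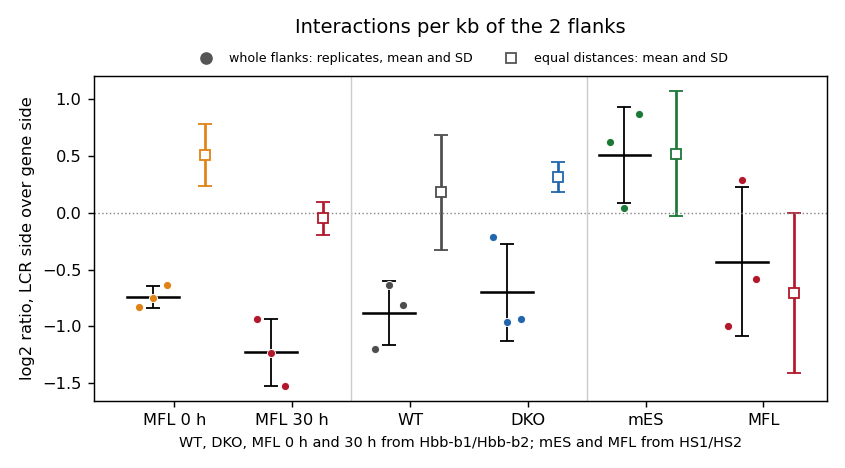
Log2 ratio of interactions per kb, LCR-side over gene-side flank, by group. Filled points are replicates over the whole flanks with their mean ± SD, and open squares are the mean ± SD of 3 replicates in windows at equal distance from the viewpoints. With Hbb-b1 and Hbb-b2 averaged, the ratio lay below 0 over whole flanks in all 12 replicates, and at equal distance the means lay between −0.05 and 0.51.

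Within the gene-side flank of erythroblasts, interactions did not fall away evenly with distance. Each flank was divided into 4 segments of 50 kb, counted from the globin locus outwards. From Hbb-b1/Hbb-b2 the first gene-side segment (chr7:110850000-110899999) held 41.5, 37.2 and 28.0 interactions per kb at 0 h, and the next segment 7.5, 13.2 and 10.1. At 30 h the same segments held 20.3, 28.2 and 37.9 and then 6.5, 11.3 and 10.9. In every replicate the first segment exceeded the second, by 1.82 ± 0.57 at 0 h, 1.59 ± 0.24 at 30 h, 1.49 ± 0.17 in WT and 1.78 ± 0.52 in DKO on the log2 scale (SD, n = 3). The 3 outer segments held 5.3 to 10.4 per kb in the means of these 4 groups.

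From HS1/HS2, which lie farther off, MFL cells showed the same shape, with 33.3, 19.3 and 29.2 per kb in the first gene-side segment and 14.3, 4.5 and 9.8 in the second. In mES cells the segments held 23.0 ± 7.72, 18.7 ± 4.51, 26.1 ± 7.33 and 30.6 ± 4.61 per kb from the first to the fourth (SD, n = 3). The first was the only one of the 4 gene-side segments where MFL cells, at 27.3 ± 7.18 per kb, did not have the lower mean, although its bin from 110880000 was lower in MFL (177 against 425) and the bin from 110840000 in the second segment was higher (90.1 against 59.2). MFL values in the other gene-side segments were 9.51 ± 4.91, 5.30 ± 0.636 and 8.31 ± 5.22 per kb. This shape was noticed in these data, and no test was made of it.

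On the LCR side the first segment had the highest mean in every group. It held 14.7 ± 1.55 per kb at 0 h, 11.9 ± 2.06 at 30 h, 13.2 ± 4.41 in WT, 16.7 ± 3.64 in DKO, 46.0 ± 9.37 in mES and 17.3 ± 3.37 in MFL cells from HS1/HS2 (SD, n = 3). The means of the 3 outer segments were 7.7, 6.8 and 5.9 per kb at 0 h and 3.1, 4.6 and 1.7 at 30 h. In mES cells the outer LCR-side segments held 38.2, 31.3 and 29.0 per kb where MFL cells had 3.8, 8.5 and 6.6, and in mES replicate 3 the second segment, at 62.5, exceeded the first, at 43.2.

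**Figure D3:**
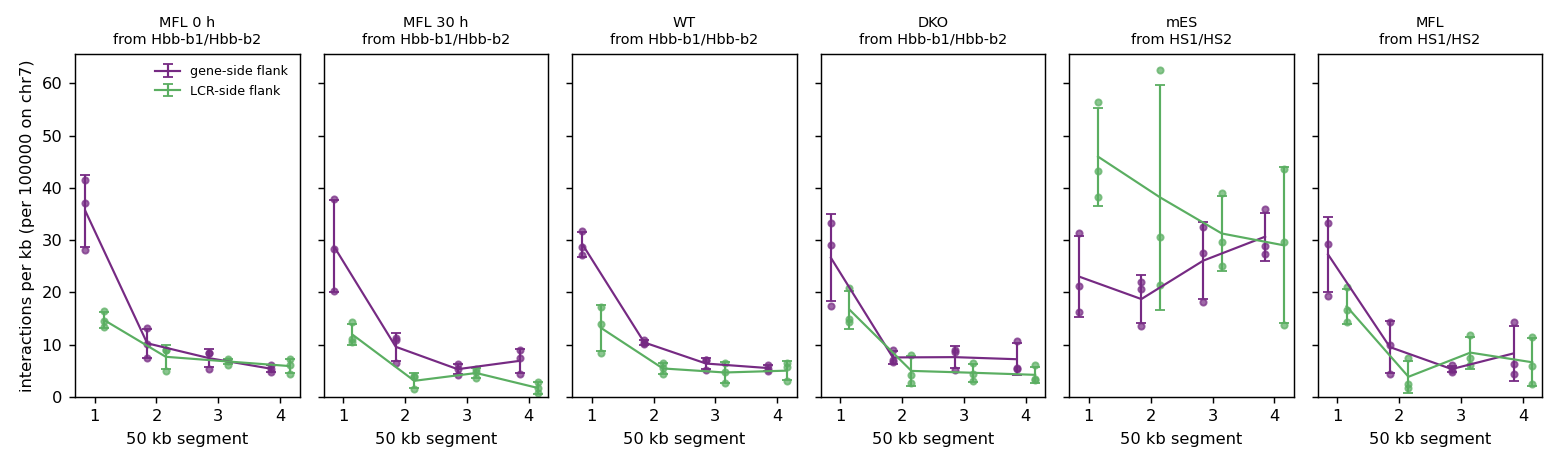
Interactions per kb (per 100000 on chromosome 7) in the 4 segments of 50 kb of each flank, numbered outwards from the globin locus, for each group. Points are replicates, lines join the means and bars are the SD of 3 replicates. The first gene-side segment stood above the others in all erythroblast groups and not in mES cells.

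Bins of 10 kb located these contacts more closely. From Hbb-b1/Hbb-b2 the 3 highest gene-side bins in both experiments were chr7:110860000-110869999, its outer neighbour from 110850000 and its inner neighbour from 110870000. The first of them, which contains Olfr243, held 672, 480 and 407 interactions per 100000 at 0 h and 324, 540 and 529 at 30 h, against a median of 84.1 over the gene-side bins. In WT it held 377, 328 and 477 and in DKO 175, 631 and 360.5, with a median of 84.5. It lies 104 kb from the middle of the viewpoints, and it exceeded the 3 flank bins nearer to the genes in the means of all 4 groups. The stretch between the flank and the genes was not examined. Nearer to the genes, the bin chr7:110880000-110889999 with Olfr628 and Olfr629 held 148, 262 and 197 at 0 h and 114, 23.0 and 324 at 30 h. From HS1/HS2 the 3 highest gene-side bins by the mean over both cell types were those from 110700000, 110880000 and 110870000, but the cell types differed in order. In MFL cells alone the highest were those from 110890000, 110860000 and 110850000, with means of 352, 293 and 271. The bin from 110700000, with Olfr613 and Olfr615 at the far end of the flank, held 442, 429 and 656 in mES and 238, 0 and 46.6 in MFL cells.

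On the LCR side the bin nearest to the locus, chr7:111100000-111109999, had the highest mean in all 3 comparisons. It holds the pseudogene Olfr634-ps1 and begins 7.4 kb beyond the fragment HS90, a capture viewpoint of the 0 h and 30 h libraries. The files of WT and DKO also hold values for HS90, which their labels do not describe and which were not used here. Its values were 252, 322 and 371 at 0 h and 411, 164 and 324 at 30 h, where the median LCR-side bin had 62.4. It held 239, 271 and 462 in WT, and 509, 384 and 491 in DKO. From HS1/HS2, in libraries whose labels list no HS90 capture, it held 1006, 952 and 786 in mES and 476, 378 and 335 in MFL cells. Other LCR-side bins among the highest were that from 111130000 with Olfr636-ps1 (0 h and 30 h, and mES and MFL), that from 111120000 with Gm4886 and Olfr635 (both experiments from the genes), that from 111250000 with Olfr646 (WT and DKO) and that from 111200000 with Olfr643 (mES and MFL). The last ranked there through mES cells, with a mean of 537, and had 120 in MFL, below the bins from 111120000 (248), 111130000 (145) and 111290000 (137).

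**Figure D4:**
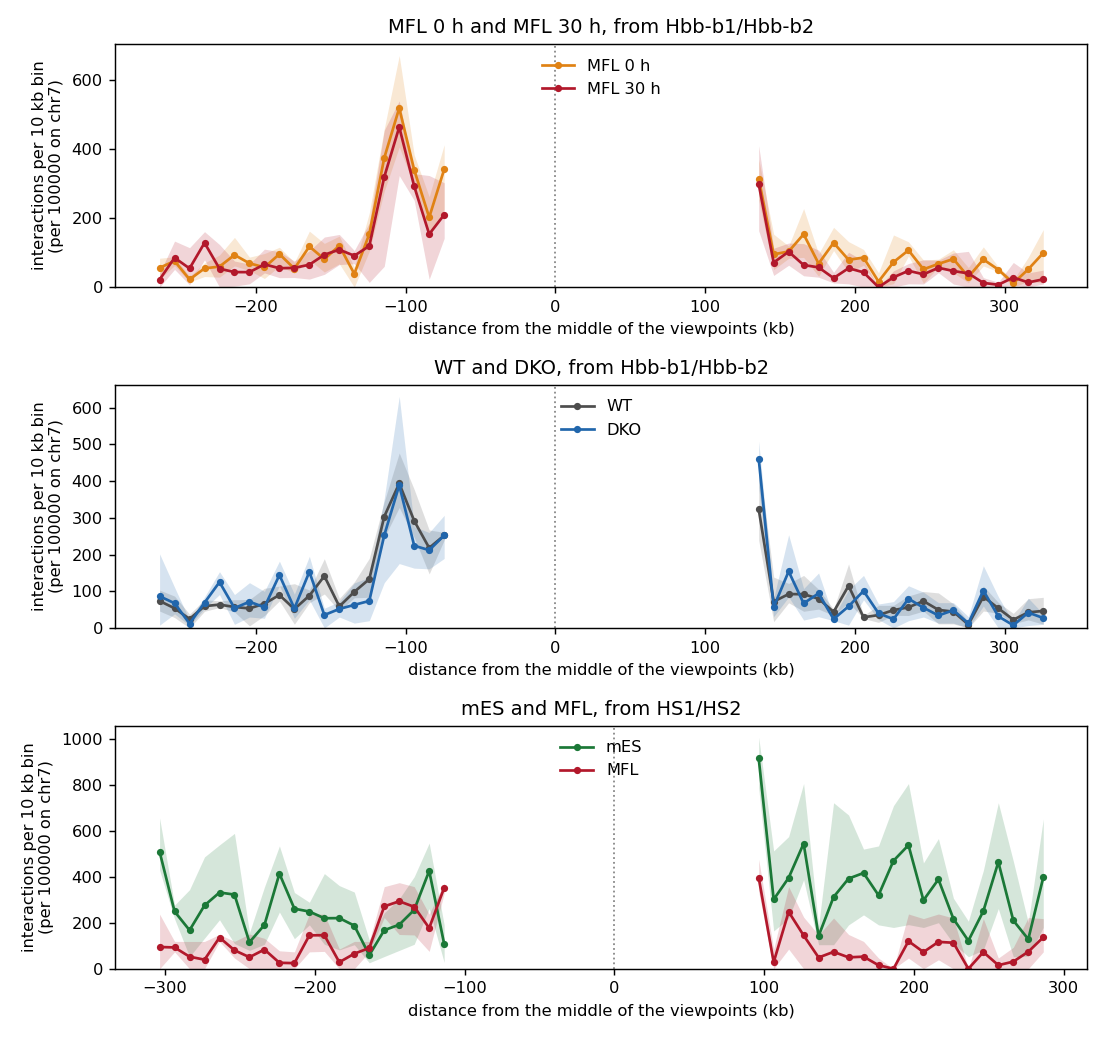
Interactions per 10 kb bin (per 100000 on chromosome 7) against the distance in kb from the middle of the viewpoints, negative on the gene side. Lines are means of 3 replicates and shaded bands run from the lowest to the highest replicate. From Hbb-b1/Hbb-b2 a rise about 104 kb from the viewpoints, with 320 to 520 at its centre and outer shoulder at 0 h and 30 h, stood out from the gene-side bins beyond it, and the nearest LCR-side bin stood out from its neighbours in all comparisons.

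Bin by bin, few flank differences passed a test across chromosome 7. The limma test was run on log2(value + 1) for bins whose mean reached 10, with adjustment over all of these bins (Benjamini-Hochberg). Over all bins tested the median log2 difference was −0.40 for 30 h against 0 h, −0.0024 for DKO against WT and 0.19 for MFL against mES. The last depended on which bins were tested, and was −1.59 over bins with a mean of at least 2 and −2.31 over those with a mean of at least 20. Between 30 h and 0 h, 0 of 20 gene-side and 0 of 19 LCR-side bins passed an adjusted p of 0.05, against 0.351% of the 1424 bins tested that passed as higher and 0% as lower. At an unadjusted p of 0.05 the LCR side had 3 lower and 0 higher bins (4.21% lower over all bins) and the gene side 0 lower and 1 higher (2.46% higher over all bins). edgeR on the whole reads of the NextSeq run and DESeq2 also gave 0 flank bins. In direction, 17 of 19 LCR-side bins had a lower mean at 30 h, against 50.6% of all bins tested, and the groups did not overlap with 30 h lower in 4 of the 19 (8.5% of all bins). On the gene side they did not overlap in 2 bins, both higher at 30 h (3.37% of all bins). The median LCR-side bin had 80.5 at 0 h and 43.0 at 30 h, whereas the median over all bins tested was 18.9 and 19.7. The gene-side medians were 87.4 and 88.2, with 13 of 20 bins lower.

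Between DKO and WT, 1 of 40 flank bins passed, lower in DKO (limma, 0.175% of 1143 bins passed as lower and 0% as higher). It was chr7:110810000-110819999, which contains the olfactory receptor gene Olfr624. This bin held 143, 189 and 92.5 in WT and 52.1, 0 and 53.7 in DKO, so all DKO replicates were lower. The log2 difference was −3.26 ± 0.76 (limma SE) with a limma adjusted p of 0.0116, on 42 reads in WT and 6 in DKO. The SE and the p draw their variance from a trend over all bins tested, not from the replicates of this bin alone. Without DKO replicate 2, the replicate at 0, the log2 difference was −1.34, and it ranged from −4.23 to −1.34 when 1 library was left out. The call was lost without any single library, with adjusted p values from 0.219 to 0.969, and over 17 alternatives it passed in 5 (range of adjusted p 0.00853 to 0.9995). The edgeR test also gave 1 flank bin lower in DKO, and DESeq2 0. Of the 40 flank bins, 22 had a lower mean in DKO (11 on each side, against 39.8% of all bins tested). That background depended on the measure, since 572 of the 1143 bins tested had a log2 difference below 0. By that measure 12 gene-side and 10 LCR-side bins were lower, so the flank count is not set apart from it. The groups did not overlap in 3 bins with DKO higher and 2 with DKO lower (5.16% and 4.11% of all bins), and before adjustment the limma p was under 0.05 for 1 higher and 5 lower bins (2.19% and 1.84% of all bins). In WT and DKO the median gene-side bin had 80.8 and 72.5, and the median LCR-side bin 51.4 and 51.8.

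Between MFL and mES cells, 1 of 40 flank bins passed, lower in MFL (limma, 0.135% of 1478 bins passed as lower and 0.474% as higher). This was chr7:111190000-111199999, with Olfr642 and part of 4930516K23Rik, which held 520, 179 and 709 in mES and 0 in each MFL replicate (limma adjusted p = 0.03). In pooled reads it had 22 reads in mES and 0 in MFL, and with 3 reads over the MFL group as the limit it was at least 4.8-fold lower in MFL. The call was lost from HS1 alone (adjusted p = 0.35) and its adjusted p ranged from 0.00144 to 0.35 over 17 alternatives, of which 15 kept it. edgeR gave 3 flank bins lower in MFL and DESeq2 gave 7. At an unadjusted p of 0.05, 16 of 20 LCR-side and 6 of 20 gene-side bins were lower in MFL, against 9.88% of all bins, and 1 gene-side bin was higher (1.15% over all bins). All 20 LCR-side bins and 15 of 20 gene-side bins had a lower mean in MFL, against 45% of all bins tested. That background also depended on the filter, since 557 of 799 bins with a mean of at least 20 had a log2 difference below 0, so the gene-side count is not set apart from it. The groups did not overlap with MFL lower in 9 LCR-side and 7 gene-side bins (8.46% of all bins) and with MFL higher in 1 gene-side bin (1.29%). The median LCR-side bin had 354 in mES and 72.7 in MFL, and the median gene-side bin 234 and 91.5, while the median over all bins was 17.4 and 25.2. The gene-side bin that was higher in MFL before adjustment was the one nearest to the globin genes, chr7:110890000-110899999. It held 191, 27.4 and 106 in mES and 357, 372 and 328 in MFL (limma adjusted p = 0.354).

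Gene by gene, coverage was too thin for tests, and levels per kb of the overlapping fragments are given as a description. Among the 14 gene-side olfactory receptor genes viewed from Hbb-b1/Hbb-b2, the highest mean was at Olfr243 at 0 h, at 30 h and in WT. Only Olfr243, Olfr628 and Olfr629 lie in the first 50 kb segment, so this ranking sets genes at unlike distances against each other. Olfr243 (chr7:110865110-110866060, plus strand) had 39.9 ± 2.84 per kb at 0 h, 70.0 ± 10.3 at 30 h, 44.8 ± 13.3 in WT and 32.6 ± 28.3 in DKO (SD, n = 3). These rest on 57, 45, 38 and 14 reads, counted in the NextSeq run alone at 0 h and 30 h. Over the 14 genes the median was 10.6 at 0 h, 7.6 at 30 h, 9.9 in WT and 17.3 in DKO. In DKO the highest was Olfr628, with 39.0 ± 23.99 per kb.

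The 10 LCR-side olfactory receptor genes had medians of 7.4, 3.1, 6.5 and 6.9 per kb in the same groups, and at 30 h 4 of the 10 had 0 reads. From HS1/HS2 in mES cells all 24 olfactory receptor genes had reads, with medians of 37.3 per kb on the gene side and 32.5 on the LCR side. In MFL cells the medians were 16.7 and 7.0, and 3 gene-side and 4 LCR-side genes had 0 reads. A gene with 0 reads was below detection at this depth.

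The receptor genes themselves cover 74 of the gene-side and 39 of the LCR-side fragments. On the gene side at 0 h, fragments of olfactory receptor genes had 13.3 ± 3.84 interactions per kb and fragments outside genes 15.1 ± 2.09. At 30 h they had 16.1 ± 2.99 and 11.9 ± 2.83, and in mES cells from HS1/HS2 41.9 ± 10.2 and 22.1 ± 1.67. On the LCR side they had 7.15 ± 2.06 and 13.8 ± 3.28 at 0 h, and 5.03 ± 1.38 and 11.997 ± 4.61 at 30 h, and in mES cells 30.8 ± 19.5 and 43.4 ± 6.80 (SD, n = 3). Of the rest of the LCR side, 4930516K23Rik (chr7:111147314-111285919, minus strand) spans the larger part and is not counted among the fragments outside genes. Those fragments thus lie toward the ends of the flank. The class of pseudogenes and non-coding genes, to which 4930516K23Rik belongs, had 7.39 ± 1.58 per kb at 0 h and 3.27 ± 1.68 at 30 h. In mES cells it had 33.9 ± 11.1 (SD, n = 3). The LCR-side classes differ in distance from the locus, and the part of distance in their levels was not tested.

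Single fragments seldom collected more than a handful of reads. In the 0 h and 30 h libraries, 60.5% of gene-side and 48.8% of LCR-side fragments had at least 1 read. Fragments with a read were longer, with a median of 326 against 115 bases on the gene side and 370 against 117 on the LCR side. The start of the most contacted fragment in each flank and comparison, which was chosen after its values were seen, is printed 5′ to 3′ on the plus strand with the DpnII site in capitals, since this is an end at which ligation takes place. The files list each fragment from a pair of bases after the start of its site.
Gene side, 0 h and 30 h, chr7:110864938-110864967, reaching into Olfr243: GATCtacataaaacagtcttgtcagtaaaa
LCR side, 0 h and 30 h, chr7:111104477-111104506, outside genes: GATCtcaaccttaccttgcacctccatcat
Gene side, WT and DKO, chr7:110861261-110861290, outside genes: GATCtttggctccaaatacatatgtagcag
LCR side, WT and DKO, chr7:111100625-111100654, outside genes: GATCtgcactgatatgcttttcttcaaagt
Gene side, mES and MFL, chr7:110708756-110708785, in Olfr615: GATCttcaccacatggagattagtaatgaa
LCR side, mES and MFL, chr7:111138138-111138167, in Olfr636-ps1: GATCcgaggcagagttagaaaggctgtatg
The Olfr243 fragment is 559 bases long and held 27.9, 11.2 and 38.2 interactions per 100000 at 0 h and 124, 85.0 and 40.1 at 30 h. In the NextSeq run it had 14 reads in each group. The fragment from 110861263, 578 bases long, held 74.5, 51.8 and 30.9 in WT and 38.9, 53.0 and 76.6 in DKO. In mES and MFL cells the leading LCR-side fragment rested on 6 reads, all in mES. From the genes, all leading fragments of both experiments thus lay in the highest bin of their flank.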

How the data were processed

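NG Capture-C libraries cut with DpnII were analysed in 18 samples. The authors deposited reporter reads per DpnII fragment for each viewpoint, normalised to 100000 reporter reads over all chromosomes, a unit akin to RPM. Trim Galore, Bowtie and mm9 are named in the submitters' processing notes. The authors' values were whole multiples of 1 read for 100% of entries (tolerance 0.05 reads), so whole reads were recovered. Here, values were rescaled to 100000 interactions on chromosome 7, fragments within 1 kb of a viewpoint were left out, and both viewpoints of a pair were averaged. The 2 runs of a 0 h or 30 h library differed by less than the sampling noise (chi-square per degree of freedom 0.309 to 0.827), were averaged and counted as 1 replicate. Fragments were placed by an in silico digest, which held every one of the 85925 listed fragments of chromosome 7. The flanks, bins and lists were chosen with earlier results of these data known.

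Shares and ratios were compared with two-sided exact permutation tests on the log2 scale (20 arrangements, scipy 1.17.1), and 10 kb bins with limma 3.58.1 (pseudocount 1, mean of at least 10, trended empirical Bayes). Since 3 samples against 3 were compared, the exact p-values measure only the spread between these samples. The limma SE and p-values also draw on a variance trend over all bins tested, not on the replicates of a single bin alone. Recovered reads were also tested with edgeR 4.0.16 (quasi-likelihood) and DESeq2 1.42.0 (R 4.3.3) as alternatives. In these tests edgeR called 0, 1 and 3 flank bins and DESeq2 0, 0 and 7, for 30 h against 0 h, DKO against WT and MFL against mES. The limma and edgeR steps were also run on counts simulated with a fixed dispersion and without the mean filter. These settings differ from the data, so no error rate of the calls above is drawn from that run. Named bins were those past an adjusted p of 0.05 (at most 3 in each direction) and the 3 of each flank with the highest mean, with the genes they overlap. Other bins and fragments in the text were chosen after their values were seen.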

Additional observations from a re-analysis of the deposited data

How the results depend on the processing

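The LCR-side share was lower at 30 h than at 0 h in all 15 alternatives (log2 difference −0.89 to −0.62), without overlap in each, and lower in MFL than in mES cells in all 13 (−2.47 to −1.66), likewise without overlap. The gene-side share was lower in MFL in all 13 (−1.57 to −0.74). Between DKO and WT the small differences changed sign. The gene-side difference was 0.079 when scaled to interactions within 500 kb and 0.015 from Hbb-b1 alone. The LCR-side difference ranged from −0.072 (without WT replicate 1) to 0.21 when 1 library was left out, and was −0.064 without DKO replicate 1. The side ratio ranged from −0.063 (without DKO replicate 1) to 0.31. The side ratio of 30 h against 0 h was −0.38, with overlap, from Hbb-b1 alone. The cause was not tested.

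For 30 h against 0 h, 0 flank bins were called in all 21 alternatives. For DKO against WT the single called bin became 0 bins with a pseudocount of 5, a mean of at least 2 or of at least 20, bins of 5 kb or 20 kb, either viewpoint alone and DESeq2, and 0 to 0 when any 1 library was left out. For MFL against mES the count was 4 with a pseudocount of 5, 5 with a mean of at least 2, 0 with bins of 20 kb, 17 with values as deposited, 0 from HS1 alone, 8 from HS2 alone, 3 with edgeR and 7 with DESeq2. Leaving out 1 library gave 2 to 10, with 10 without MFL replicate 3, 5 without MFL replicate 2 and 2 without any other. In this comparison the median log2 difference over all bins was −2.15 with values as deposited (875 bins) and 0.65 when scaled outside the interval (1697 bins), and −2.31 with a mean of at least 20 (799 bins). Scaling and the choice of tested bins cannot be told apart in these medians.

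Replicate numbers are shared between groups. Deviations of same-numbered samples did not correlate over the tested bins (−0.0346 to 0.00948, −0.0491 to −0.0139 and −0.0144 to 0.00174 in the 3 comparisons). Many of these bins rest on few reads, so counting noise could hide a pairing, and pairing was not excluded. The main tests treat the samples as unpaired. With the replicate block, 0, 1 and 0 flank bins were called (adjusted limma p of the bin from 111190000 was 0.122), and exact sign-flip p-values of the shares and ratios were 0.25 to 1, where 0.25 is the smallest possible. Depth limited the HS1/HS2 captures in MFL cells, where 14 to 39 reads per replicate fell in the LCR-side flank.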
